A study of Homo sapiens with 26 samples.

Results

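APEX2 fused to a PDGFR sequence was used to tag RNA at the outer face of the plasma membrane of HEK293T cells, an immortal human line of embryonic kidney origin. The comparison set 3 labeled libraries against 3 unlabeled control libraries of the same construct, 6 of the 26 libraries of the series, and took the 20215 of 25745 genes whose log2 value was above 0 in at least 3 of these 6. The labels call all of these cells stable transfectants of HEK293T, so labeled and control cells alike carry the PDGFR-APEX2 fusion. The labels state neither which PDGF receptor the fusion uses nor whether the line is 1 clone. Under every sample they list incubation with biotin-phenol (30 min), then hydrogen peroxide (1 min at 1 mM), and which step the unlabeled controls went without is not given in the sources used here. The other constructs of the series were CD28, also facing outside (3 labeled, 3 control), and Lyn11 (4 labeled, 4 control) and Lck (3 labeled, 3 control), both facing inside, each with its own controls.

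APEX2 is an engineered ascorbate peroxidase that converts biotin-phenol into short-lived radicals when hydrogen peroxide is present, and the biotin left on nearby RNA allows capture on streptavidin beads. PDGF receptors are single-pass receptor tyrosine kinases, with the ligand-binding part outside the cell and the kinase inside. Several RNAs described here are spliceosomal small nuclear RNAs. U1 pairs with the 5′ splice site, U2 with the branch point, and U4, U5 and U6 join as a tri-snRNP, while U4atac serves the minor spliceosome. U3 is a box C/D small nucleolar RNA needed to process the ribosomal RNA precursor in the nucleolus.

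Labeled libraries held 13360541, 14382591 and 12992648 recovered reads, and controls held 16603389, 11847244 and 13122975. PDGFR control replicate 2 (called control 2 here) stood apart, with 3032 genes at 0 reads against 855 to 1360 in the 3 labeled libraries and 1122 and 1226 in the other controls. The SD of log2 values around the group mean was 0.56 to 0.61 in labeled libraries and 0.67 to 0.88 in controls, the largest being that of control 2. Differences are therefore given with all 6 libraries and, for the calls, the gene groups and most named genes, also without control 2. The endogenous receptor genes gave no check of the fusion, since reads from the fusion cannot be told from theirs. PDGFRA had 11, 15 and 16 reads in labeled libraries and 23, 9 and 44 in controls, and PDGFRB had 54, 58 and 42 against 51, 9 and 58. Of 8 markers set for HEK293T, 7 were in the table and all 7 passed the filter, with summed FPKM of 77.4 to 95.1 in labeled libraries and 72.0 to 95.3 in controls. Of the markers of other cells in the table, 1 of 4 for blood and 1 of 3 for fibroblasts passed, and 0 of 3 for epithelial carcinoma and 0 of 2 for endothelium.

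The design asks which RNAs labeling enriched at the outer face. Of 20215 genes tested, 118 (0.584%) were called at an adjusted p under 0.05, with 83 higher (0.411%) and 35 lower (0.173%) in labeled libraries, by limma on the deposited log2 FPKM values with Benjamini-Hochberg adjustment. A difference is the mean log2 FPKM of labeled minus that of control libraries, so 1 is a doubling, and low values are shrunk by the prior count of about 1 read that the deposited values contain. In such bulk samples, fewer labeled cells and less labeled RNA per cell cannot be told apart. Calls were concentrated among small nuclear RNA genes, of which 18 of 282 rose and 3 fell (7.45% called), whereas 16 of 12318 protein-coding genes rose and 5 fell (0.17% called). All 118 genes had labeled and control libraries that did not overlap, as did 14% of all genes tested. Without control 2 the calls numbered 179 (0.885%), 131 higher (0.648%) and 48 lower (0.237%). Both fits called 100 genes in the same direction, 73 higher and 27 lower, while 18 were called only with all 6 libraries and 79 only without control 2. The median difference of all genes was 0.02 with all 6 and -0.02 without control 2.

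The error of this test was pooled over all 26 libraries, weighted by construct, and it understates the error of a gene that varies more in the PDGFR libraries than elsewhere. On simulated data with such genes, the pooled test made about as many false calls as the number reported here, so its calls are leads unless they also hold with the PDGFR libraries alone. With the 6 PDGFR libraries alone, limma called 14 genes, 13 of them also among the 118. A set of 9 genes was called with all 26 libraries, without control 2, with the 6 libraries alone, and by limma voom on the recovered reads. These were RNVU1-29, RNVU1-15, RNVU1-27, the U2 copy on chromosome 17, SNORD3B-2, SNHG12, ACP4 and the unnamed lincRNAs ENSG00000276216 and ENSG00000262202, all higher in labeled libraries. The rest of the 13 genes missed the call without control 2, with voom, or both. With the PDGFR libraries alone and without control 2 as well, 5 genes were called, all of them among the 118. Of the 9, RNVU1-29, SNORD3B-2, ACP4 and ENSG00000276216 kept the call there, and the adjusted p was 0.0523 for RNVU1-15, 0.0624 for RNVU1-27, 0.0601 for SNHG12, 0.106 for ENSG00000262202 and 0.109 for the U2 copy. Many of the other calls rest on few reads. Of the 83 genes that rose, 37 were above 0 in no control, and 14 of them had 0 reads in every control. Those 37 passed the filter only through the labeled libraries, where they are high, so their calls are no separate support.

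**Figure D1:**
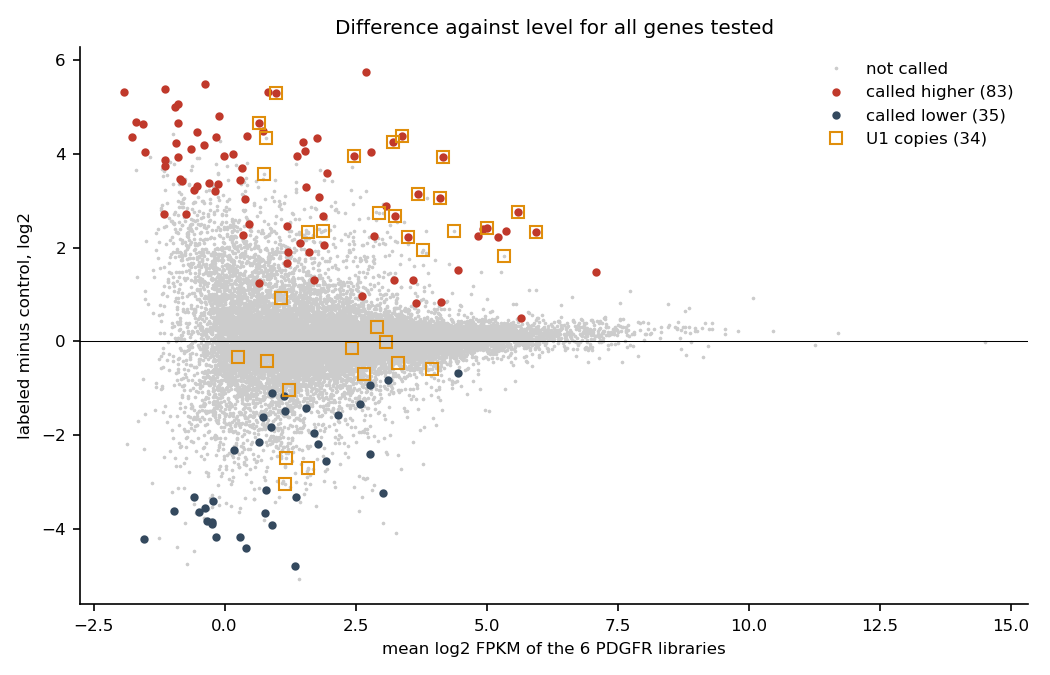
Difference of labeled minus control libraries (vertical axis, log2) against the mean log2 FPKM of the 6 PDGFR libraries (horizontal axis) for the 20215 genes tested, with the 83 genes called higher in red, the 35 called lower in dark blue and the 34 U1 copies in orange squares. Large differences in either direction are crowded at low levels, and 13 of the 34 U1 copies were called higher and 0 lower.

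The U1 genes held more calls than any other small RNA family tested. Of 34 U1 copies that passed the filter, 13 rose, 0 fell and 21 were not called, with a median difference of 2.34. Without control 2, 15 rose and the median was 1.93. Reads summed over the 34 copies came to 166.6, 177.9 and 156.4 RPM (recovered reads of a gene scaled to 1e6 in the library) in labeled libraries, against 46.4, 46.9 and 38.9 in controls. The groups did not overlap, and control 2 was not the lowest control. The sums averaged 167 ± 10.8 in labeled libraries and 44.1 ± 4.48 in controls (SD, n = 3 each), a log2 difference of 1.92 (exact permutation p = 0.1, two-sided, the smallest that 3 against 3 allows, 0.491 adjusted over 18 families).

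The U1 copies share much of their sequence, so their annotated transcripts are shown to tell which can be counted apart. RNU1-1, RNU1-2, RNU1-3, RNU1-4, RNVU1-18, RNVU1-29, RNU1-27P and RNU1-28P have 1 identical sequence of 164 bases, and reads of any of these 8 genes could have come from any other. RNVU1-15 and RNVU1-27 are variants with 89.1% and 91.5% identity to RNU1-1. In RNU1-1 the capitals mark the stretch that pairs with the 5′ splice site and a later match to an Sm-type site, and in the variants they mark the bases that differ from RNU1-1 (sequences from GENCODE 29 on GRCh38, 5′ to 3′, as DNA letters).
RNU1-1 (chr1:16514122-16514285, minus strand): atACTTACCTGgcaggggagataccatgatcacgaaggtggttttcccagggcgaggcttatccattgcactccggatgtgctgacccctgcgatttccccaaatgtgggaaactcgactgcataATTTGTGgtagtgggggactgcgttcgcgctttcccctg
RNVU1-15 (chr1:144412576-144412740, plus strand): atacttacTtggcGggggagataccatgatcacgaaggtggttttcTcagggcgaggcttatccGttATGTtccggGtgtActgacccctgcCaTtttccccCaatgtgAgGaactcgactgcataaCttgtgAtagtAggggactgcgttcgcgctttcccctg
RNVU1-27 (chr1:148522601-148522765, plus strand): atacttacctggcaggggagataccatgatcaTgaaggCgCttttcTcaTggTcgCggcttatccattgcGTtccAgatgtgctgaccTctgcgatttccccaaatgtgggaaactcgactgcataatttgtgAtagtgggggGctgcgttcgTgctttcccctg

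Calls came both from the copies with the RNU1-1 sequence and from the variants. The 8 identical copies together had 456, 569 and 340 reads in labeled libraries and 45, 51 and 33 in controls, a log2 difference of 3.41 in RPM and 3.65 without control 2. All 8 were positive and 5 were called. Of these, RNU1-1 and RNU1-2 had 0 reads in every control and passed the filter only through the labeled libraries. The 26 copies with another sequence had 1770, 1990 and 1692 reads in labeled libraries and 726, 505 and 478 in controls, a log2 difference of 1.71 (1.74 without control 2), with 8 called higher and 15 positive. Among these, 16 copies under 85% identity to RNU1-1 had a median difference of 0.61, and 10 copies from 89.1% to 99.4% identity had a median of 2.38.

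RNVU1-29 (ENSG00000273768.1) had 167, 225 and 123 reads in labeled libraries and 12, 11 and 9 in controls. Its log2 FPKM was 6.12, 6.55 and 5.73 in labeled libraries and 2.16, 2.38 and 2.05 in controls, and the difference was 3.94 ± 0.45 (SE; adjusted p = 0.000163, and 0.00773 with the PDGFR libraries alone; difference 4.03 without control 2). RNVU1-15 (ENSG00000207205.1), whose sequence departs from RNU1-1 at the capitals above, had 335, 329 and 246 reads in labeled libraries and 50, 36 and 53 in controls. It rose by 2.75 ± 0.40 (adjusted p = 0.00141, and 0.00793 alone; difference 2.66 without control 2). RNVU1-27 (ENSG00000274210.1) had 318, 394 and 289 reads in labeled libraries against 96, 52 and 61 in controls and rose by 2.34 ± 0.36 (adjusted p = 0.00248, and 0.019 alone; difference 2.23 without control 2). In each of these genes every labeled library lay above every control. RNVU1-7 (ENSG00000206585.1), of 99.4% identity to RNU1-1, had 187, 186 and 156 reads in labeled libraries and 65, 16 and 36 in controls, with control 2 lowest. It rose by 2.42 ± 0.44 (adjusted p = 0.0114, 0.244 alone), and by 1.97 without control 2. RNU1-1 itself (ENSG00000206652.1) had 31, 21 and 37 reads in labeled libraries and 0 in every control. No fold is given for RNU1-1 alone, since its reads could have come from any of the 8 identical copies. Together those copies differed by 3.41 on the log2 scale.

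Other U1 copies were not called and lay near or below 0. RNU1-31P, RNU1-103P and RNU1-129P, with 65.2% to 74.4% identity to RNU1-1, had differences of 0.30, -0.01 and -0.14. RNU1-16P, with 84.8% identity, had 12, 22 and 27 reads in labeled libraries and 23, 37 and 26 in controls (difference -0.47, adjusted p = 0.913). The lowest difference, -3.05, was that of RNU1-134P, with 0, 1 and 4 reads in labeled libraries and 24, 16 and 9 in controls (adjusted p = 0.256).

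A sequence feature was looked up across the 270 snRNA-family genes that passed the filter. The Sm ring of U1, U2, U4 and U5 snRNPs assembles on a short uridine-rich site, searched here as ATTTNTG or ATTTTTTG, which cannot overlap each other. On the transcript strand 34.1% of the 270 held a match and on the other strand 17.4%, against 28.4% and 16.4% of the 1900 snRNA genes of GENCODE 29. The 92 genes with a match had a median difference of 0.33, with 13 higher and 0 lower. The 178 without one had a median of -0.13, with 4 higher and 3 lower. The split largely follows the families, since 26 of the 34 U1 copies and 45 of the 176 U6 copies held a match, and the 45 U6 copies had a median of -0.24. Within U1, 10 of the 26 copies with an Sm-type match rose, and 3 of the 8 without one. The splice-site stretch ACTTACCTG was in the first 12 bases of 2.63% of all GENCODE snRNA genes. The 16 U1 copies with it included 9 of the 13 that rose, and the 18 without it included 4. These 16 hold the 8 identical copies, 5 of them called, whose reads cannot be told apart.

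U4, U5 and U4atac each gave 1 called copy, all from few control reads. RNU4-2 (ENSG00000202538.1), 1 of the expressed U4 genes, is shown with the match to the Sm-type site in capitals.
RNU4-2 (chr12:120291763-120291903, minus strand): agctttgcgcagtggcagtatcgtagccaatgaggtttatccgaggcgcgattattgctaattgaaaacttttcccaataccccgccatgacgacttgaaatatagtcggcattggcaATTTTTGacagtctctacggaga
It had 111, 92 and 87 reads in labeled libraries and 12, 0 and 0 in controls, so the controls rest on 1 library. Its difference was 5.74 ± 0.68 (adjusted p = 0.00025, 0.305 with the PDGFR libraries alone; difference 5.10 without control 2). Summed reads were 24.7-fold higher in labeled libraries (95% counting interval 13.9 to 48.3). RNU4-1 (ENSG00000200795.1) had 4.10, 3.18 and 2.77 log2 FPKM in labeled libraries and 0.98, -1.45 and -1.45 in controls (adjusted p = 0.113). RNU5A-8P (ENSG00000200972.1), a U5 copy on the opposite strand of HHAT, had 11, 17 and 23 reads in labeled libraries and 2, 0 and 0 in controls (difference 3.94 ± 0.75, adjusted p = 0.0154; difference 3.67 without control 2). RNU4ATAC (ENSG00000264229.1), on chromosome 2 within CLASP1-AS1, had 57, 36 and 10 against 0, 0 and 4 (difference 4.34 ± 0.77, adjusted p = 0.00879; difference 3.90 without control 2).

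As whole families, only U5 of these separated labeled from control libraries. The 7 U5 copies summed to 8.98, 13.6 and 9.54 RPM in labeled libraries and 3.55, 2.95 and 4.19 in controls, and all 7 had positive differences (median 2.095, 1.40 without control 2). The 16 U4 copies summed to 26.6, 14.9 and 19.9 against 9.15, 17.1 and 11.05, which overlap through control 2. The copies with RNU2 symbols overlapped as well, at 9.8, 10.7 and 14.2 against 5.66, 12.7 and 6.78. The most abundant U2 copy carries only the name U2 (ENSG00000278048.1, chromosome 17, 43251829 to 43252019, within CCDC200). It had 567, 682 and 645 reads in labeled libraries and 243, 209 and 252 in controls, with control 2 in step with the others, and rose by 1.48 ± 0.29 (adjusted p = 0.0162, and 0.0435 alone; difference 1.47 without control 2).

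U6, made by RNA polymerase III and carrying no Sm ring, overlapped between the groups. Its 186 copies summed to 138.5, 114.5 and 159.6 RPM in labeled libraries and 145.5, 223.2 and 175.2 in controls. Of the 176 copies tested, 1 rose and 2 fell, with a median of -0.30 (-0.32 without control 2). RNU6-122P (ENSG00000252627.1, chromosome X, within XIAP) had 0 reads in every labeled library and 10, 51 and 17 in controls. Against a floor of 3 reads over the labeled group this is 25.5-fold lower. That fold is no bound, since the counting interval reaches down to 20.2-fold. RNU6-1176P (ENSG00000212257.1) had 0 reads in every labeled library and 12, 18 and 6 in controls. RNU6-122P and RNU6-1176P passed the filter only through the controls, where they are high, so their calls are no separate support. RNU6-322P (ENSG00000251819.1) had 13, 15 and 11 in labeled libraries and 5, 0 and 0 in controls (adjusted p = 0.0353, and 0.06 without control 2). U7, which acts in histone mRNA 3′ end processing, had 20 copies tested, of which RNU7-128P fell, with 2, 6 and 0 reads in labeled libraries and 26, 19 and 23 in controls (difference -3.22 ± 0.67, adjusted p = 0.0262; difference -3.27 without control 2). Other RNA polymerase III products overlapped between the groups, with differences in summed reads of -0.02 for 7SK, -0.07 for 7SL, -0.43 for 5S rRNA and -0.56 for Y RNA. Without control 2 these were 0.0047 for 7SK, -0.25 for 7SL, -0.27 for 5S rRNA and -0.37 for Y RNA. Those of U6 were -0.39 with all 6 libraries and -0.23 without control 2.

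**Figure D2:**
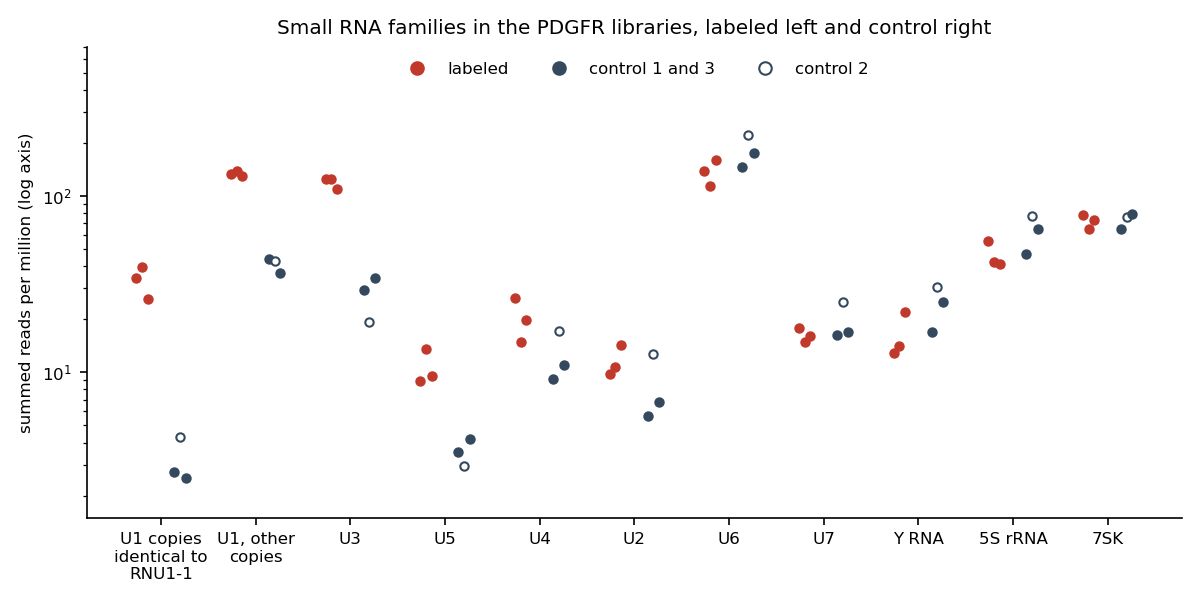
Reads summed over all copies of each small RNA family, in RPM on a log axis, for the 3 labeled libraries (red, left) and 3 controls (dark blue, right, control 2 open). U1 copies of either kind, U3 and U5 are separated between labeled and control libraries, and the other families overlap.

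U3 reads were higher in every labeled library than in any control. Its 4 copies summed to 125, 124.9 and 109.8 RPM in labeled libraries and 29.5, 19.2 and 34.1 in controls, a log2 difference of 2.16 (1.92 without control 2; exact permutation p = 0.1, 0.491 adjusted). All 4 copies had positive differences and 2 were called. SNORD3B-2 (ENSG00000262074.6, chromosome 17, 19063346 to 19064136) had 1035, 1160 and 1026 reads in labeled libraries and 285, 146 and 244 in controls. It rose by 2.36 ± 0.42 (adjusted p = 0.00879, and 0.0273 alone; difference 2.15 without control 2). SNORD3C (ENSG00000264940.4) had 117, 122 and 98 against 19, 1 and 27, and its difference of 3.58 ± 0.64 (adjusted p = 0.00879) was 2.39 without control 2, which held 1 read. The U3 copies are near-identical, so their single values share reads in an unknown way.

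Several unnamed or host genes that rose hold a small RNA on their own strand. Of 58 genes called higher that were not themselves small RNA genes, 7 enclosed an annotated snRNA or snoRNA (12.1%), compared with 629 of 19006 such genes tested (3.31%) and 0 of 29 called lower. Without control 2 the share was 7 of 94 (7.45%). ENSG00000276216 (chromosome 1, 145281116 to 145281462) starts with the U1 variant RNVU1-14 and had 431, 401 and 388 reads in labeled libraries and 108, 72 and 92 in controls. It rose by 2.23 ± 0.34 (adjusted p = 0.00199, and 0.00606 alone; difference 2.15 without control 2). ENSG00000270022 (chromosome 22, 42615244 to 42615907) starts with RNU12, whose product U12 acts at rare minor-class introns, and had 235, 439 and 190 reads against 33, 6 and 21 (difference 4.05 ± 0.67, adjusted p = 0.00444; difference 3.45 without control 2). ENSG00000262202 (chromosome 17, 19112000 to 19112636) encloses the U3 gene SNORD3D and had 638, 688 and 444 against 145, 94 and 147 (difference 2.25 ± 0.42, adjusted p = 0.0135; difference 2.11 without control 2). Reads of the enclosed RNA and of the rest of these genes cannot be told apart here. C12orf57, which encloses RNU7-1, had 220, 176 and 203 reads in labeled libraries and 101, 18 and 64 in controls (difference 2.06 ± 0.42, adjusted p = 0.0221; 1.43 without control 2). MIR5087 (ENSG00000283676.1) lies 57 bases beyond the 3′ end of the U1 variant RNVU1-21, and both rose, by 2.39 ± 0.47 (adjusted p = 0.02; difference 2.20 without control 2) and 2.66 ± 0.57 (adjusted p = 0.0331; difference 2.63 without control 2).

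Host genes of small nucleolar RNAs carry them in introns, and 2 of 21 measured hosts rose while 0 fell, where 0.411% of all genes rose. The median of the list was 0.15 and 18 of 21 were positive (median 0.20 without control 2). SNHG12 (ENSG00000197989.13, chromosome 1, 28578538 to 28583132) had 2399, 2506 and 2073 reads in labeled libraries and 1040, 652 and 859 in controls. It rose by 1.53 ± 0.21 (adjusted p = 0.000737, and 0.036 alone; difference 1.42 without control 2), with no overlap between the groups. SNHG3 (ENSG00000242125.3) had 3864, 3672 and 3144 against 3094, 2469 and 2375 and rose by 0.49 ± 0.11 (adjusted p = 0.0353, 0.414 alone; difference 0.52 without control 2). Genes for proteins of the same particles gave 1 call. With 0.17% of protein-coding genes called, these lists are too short for their counts to be read as a result. Of 7 measured Sm core genes and 18 genes for U1 and U4/U6.U5 snRNP proteins 0 were called, and of 22 for snRNA transcription, assembly and export only SNAPC5 rose, a subunit of the snRNA-activating complex that starts snRNA transcription. SNAPC5 (ENSG00000174446.12) had 357, 315 and 276 reads in labeled libraries and 263, 118 and 147 in controls (difference 0.98 ± 0.19, adjusted p = 0.0185, 0.454 alone; difference 0.80 without control 2).

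**Figure D3:**
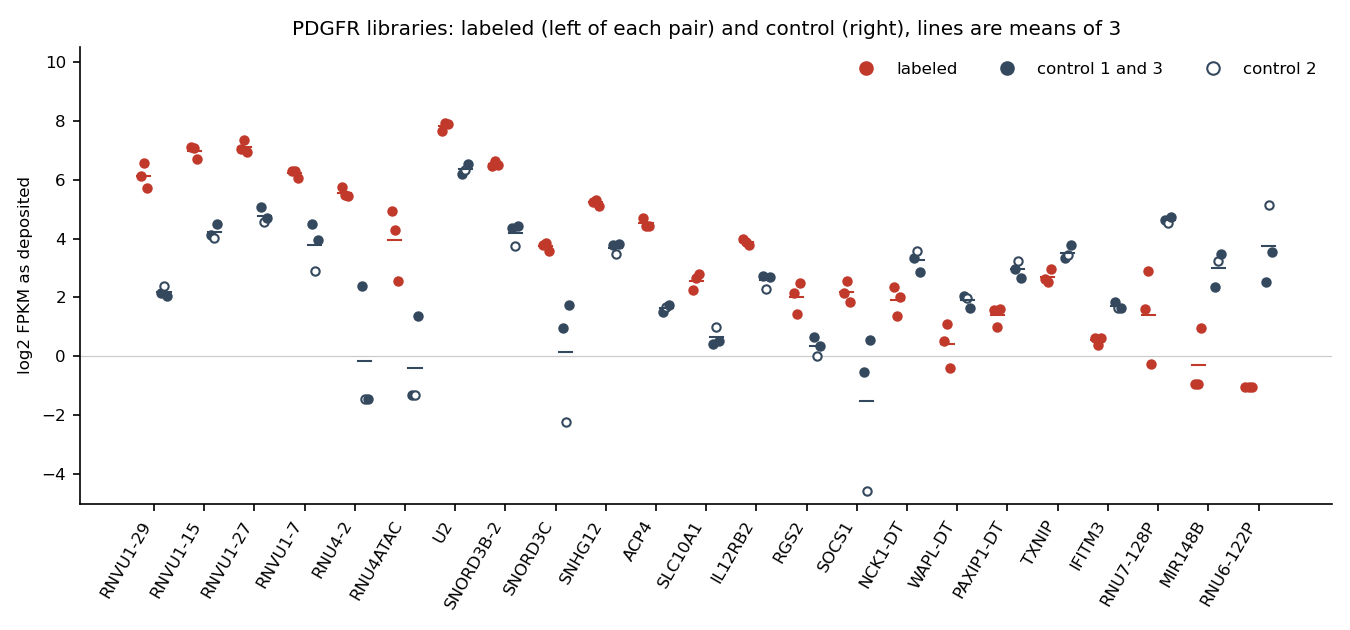
Deposited log2 FPKM of named genes in the 3 labeled libraries (red, left of each pair) and the 3 controls (dark blue, right, control 2 open), with lines at the means. Labeled and control points are apart in all genes shown, control 2 is the lowest control by a wide margin in SNORD3C and SOCS1, and RNU6-122P sits at its floor of 0 reads in every labeled library.

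Among protein-coding genes, ACP4 had the largest rise of those with a mean log2 of at least 1. ACP4 encodes a testis-type acid phosphatase. ACP4 (ENSG00000142513.5, chromosome 19, 50790415 to 50795224, plus strand) had 514, 427 and 407 reads in labeled libraries and 66, 58 and 64 in controls. Every control, control 2 included, was far below every labeled library. The difference was 2.88 ± 0.43 (adjusted p = 0.00199, 0.00606 alone), and 2.90 without control 2 (adjusted p = 0.00132).

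Other coding genes rose as well, and those given here with an adjusted p for the PDGFR libraries alone were not called there. Where none is given, only the pooled test is reported here, and the call is to be read as a lead. SLC10A1, the bile acid transporter NTCP of hepatocytes (ENSG00000100652.4, chromosome 14, 69775417 to 69797289), had 143, 190 and 201 reads in labeled libraries and 48, 55 and 42 in controls. It rose by 1.91 ± 0.23 (adjusted p = 0.000296, 0.186 alone and 0.00196 with voom on reads; difference 2.08 without control 2). IL12RB2, a subunit of the interleukin-12 receptor (ENSG00000081985.10), had 1026, 952 and 873 against 516, 296 and 415, a rise of 1.31 ± 0.22 (adjusted p = 0.00588, 0.132 alone; difference 1.16 without control 2). SGPP2, a sphingosine-1-phosphate phosphatase (ENSG00000163082.9), rose by 1.30 ± 0.23 (adjusted p = 0.00768, 0.43 alone; difference 1.03 without control 2). RGS2, a regulator that quenches G protein signalling (ENSG00000116741.7), had 135, 83 and 167 against 58, 28 and 38 (rise 1.68 ± 0.36, adjusted p = 0.033, 0.421 alone; difference 1.51 without control 2). QRFP, the precursor of the neuropeptide 26RFa, rose by 2.47 ± 0.47 (adjusted p = 0.0157; difference 2.18 without control 2) and KCNJ14, an inward-rectifier potassium channel whose annotation overlaps GRWD1 on the same strand, by 1.90 ± 0.39 (adjusted p = 0.0236; difference 1.57 without control 2). All of these had labeled libraries above every control. RXFP4, ORM2, ATP4B, ROPN1L and C9orf131 also rose but had mean log2 values under 1, and RXFP4 and ORM2 had 0 reads in every control. ENSG00000170846 was the remaining coding gene that rose, by 0.84.

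An expressed gene just upstream was looked for, since reads can run on from it. Of the 16 coding genes that rose, 4 (25%) had a same-strand neighbour with a mean log2 of at least 3 within 10 kb upstream, compared with 1267 of 12318 coding genes (10.3%). These were C12orf57 behind ATN1, SNAPC5 behind RPL4, ROPN1L behind MARCHF6, and KCNJ14, which overlaps GRWD1. For ACP4, SLC10A1, IL12RB2, RGS2 and SGPP2 none was found, but only coding genes on the same strand were searched. ACP4 is overlapped on the opposite strand by SMIM47 and ENSG00000268375, and RGS2 by ENSG00000285280. SGPP2 encloses RNU6-619P on its own strand and is overlapped on the other by NANOGP2 and GAPDHP49. Whether reads of these add to the counts was not tested.

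Of the microRNA genes, 2 of 263 rose and 2 fell (1.52% called, against 0.584% of all genes). These few reads fall on the annotated hairpins, so they do not measure the mature microRNAs. MIR93 (ENSG00000207757.1), within MCM7, had 9, 25 and 11 reads in labeled libraries and 0 in every control. Against a floor of 3 reads over the controls this is 15.3-fold higher. That fold is no bound, since the counting interval reaches down to 11.9-fold. MIR93 passed the filter only through the labeled libraries, where it is high, so its call is no separate support. MIR148B (ENSG00000199122.3), within COPZ1, had 0, 0 and 2 against 8, 12 and 15 (difference -3.32 ± 0.70, adjusted p = 0.0305; difference -3.22 without control 2). MIR4482 had 5, 1 and 2 against 15, 11 and 24 (difference -2.40 ± 0.54, adjusted p = 0.0429; difference -2.58 without control 2). The mature sequences of both conserved microRNAs are given with their seeds, bases 2 to 8, in capitals (RefSeq, GRCh38.p14), and the seeds differ.
hsa-miR-93-5p (chr7:100093815-100093837, minus strand): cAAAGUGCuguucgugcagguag
hsa-miR-148b-3p (chr12:54337278-54337299, plus strand): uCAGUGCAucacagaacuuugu

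Genes that fell in labeled libraries included divergent and antisense noncoding RNAs, pseudogenes and 5 coding genes. Genes annotated as antisense made up 9 of the 35 (of 1996 tested), processed pseudogenes 9 (of 1975) and protein-coding genes 5 (of 12318). Of all genes tested 0.173% fell. In the same 3 groups 12, 9 and 16 genes rose. Of the 35, 14 were above 0 in no labeled library. Those 14 passed the filter only through the controls, where they are high. PAXIP1-DT, a divergent transcript next to PAXIP1 (ENSG00000273344.1, chromosome 7, 155003448 to 155005703), had 98, 66 and 96 reads in labeled libraries and 307, 290 and 205 in controls. It fell by 1.56 on the log2 scale, and by 1.42 without control 2, with an SE of 0.23 with all 6 (adjusted p = 0.00164, 0.244 alone and 0.00255 with voom). WAPL-DT had 64, 96 and 32 against 224, 166 and 136 (-1.49 ± 0.31, adjusted p = 0.0266; difference -1.44 without control 2), and NCK1-DT had 108, 54 and 81 against 252, 231 and 150 (-1.34 ± 0.27, adjusted p = 0.021; difference -1.18 without control 2). ATXN1-AS1, opposite ATXN1, had 18, 14 and 16 against 71, 61 and 69 (-1.96 ± 0.38, adjusted p = 0.0178; difference -1.96 without control 2). In log2 FPKM control 2 was the lowest control in none of these 4 genes, and no labeled library reached a control.

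Coding genes fell by less. TXNIP, an inhibitor of thioredoxin (ENSG00000265972.5), had 330, 306 and 403 reads in labeled libraries and 648, 541 and 714 in controls (-0.82 ± 0.18, adjusted p = 0.0353; difference -0.85 without control 2). IFITM3, an interferon-induced membrane protein that blocks virus entry (ENSG00000142089.15), had 30, 25 and 29 against 85, 57 and 60 (-1.17 ± 0.26, adjusted p = 0.0394; difference -1.20 without control 2). UBE2T, the ubiquitin-conjugating enzyme of the Fanconi anemia pathway, had 489, 429 and 345 against 889, 570 and 660 (-0.68 ± 0.15, adjusted p = 0.0353; difference -0.75 without control 2). ZSCAN12, a zinc finger gene, stood at -0.92 ± 0.21 (adjusted p = 0.0416) and at -0.71 without control 2 (adjusted p = 0.0732). ZNF221 is the remaining coding gene that fell (-1.09 ± 0.24, adjusted p = 0.0413; difference -1.13 without control 2). None of these genes was called with the PDGFR libraries alone.

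Genes of the PDGF pathway were looked up as lists, which at 0.584% called over all genes are too short for an absence of calls to be read as a result. Of 3 measured ligands, 6 receptors and co-receptors and 28 signalling genes 0 were called, with medians of -0.12, 0.07 and 0.05 (-0.18, 0.11 and 0.01 without control 2). CSF1R, a receptor kinase of the same class, had 157, 128 and 128 reads in labeled libraries and 42, 57 and 57 in controls, without overlap, and was not called (difference 1.45 ± 0.56, adjusted p = 0.373; difference 1.60 without control 2). Of 13 measured inhibitors of receptor signalling 1 rose. That was SOCS1, a feedback inhibitor of JAK-STAT signalling that overlaps RMI2 on the opposite strand (ENSG00000185338.4), with 118, 153 and 91 reads in labeled libraries and 21, 0 and 37 in controls. Its difference was 3.70 ± 0.81 (adjusted p = 0.0364, 0.642 alone). Without control 2, at 0 reads, the difference was 2.18 (adjusted p = 0.0269).

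Immediate early genes, which growth factors and hydrogen peroxide both induce, were not called with all 6 libraries (0 of 28, median 0.13). The median was -0.01 without control 2. At 0.584% called over all genes, this list too is short for that absence to be read as a result. EGR1 (ENSG00000120738.7) had 87, 118 and 61 reads in labeled libraries and 21, 27 and 20 in controls, apart from each other, with a difference of 1.95 ± 0.47 (adjusted p = 0.0614). Without control 2 its difference was 2.15 (adjusted p = 0.0261), the 1 call in the list. FOS had 79, 129 and 69 against 64, 5 and 44, so control 2 was far below the others, and its difference was 1.87 ± 0.78 with all 6 libraries (adjusted p = 0.438) and 0.87 without control 2. HEXIM1, the 7SK-bound inhibitor of P-TEFb, had 2253, 2498 and 1850 against 1767, 1245 and 1449 (difference 0.63 ± 0.18, adjusted p = 0.154; difference 0.58 without control 2).

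Abundant cytoplasmic and secretory mRNA groups had 0 genes called, and their medians were lower without control 2. At 0.584% called over all genes, these lists are too short for an absence of calls to be read as a result. Ribosomal protein mRNAs were positive in 80 of 83 genes with a median of 0.27, and the median was 0.07 without control 2. Their summed levels in RPM were 33942, 39467 and 31075 in labeled libraries and 35496, 23540 and 31093 in controls, with control 2 lowest. Medians with all 6 and without control 2 were 0.19 and 0.06 for 15 translation factors, 0.18 and 0.07 for 27 ER chaperone and translocon genes, and 0.11 and 0.02 for 42 plasma membrane receptor and adhesion genes. The 15 mitochondrially encoded RNAs had a median of 0.39, and 0.32 without control 2.

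**Figure D4:**
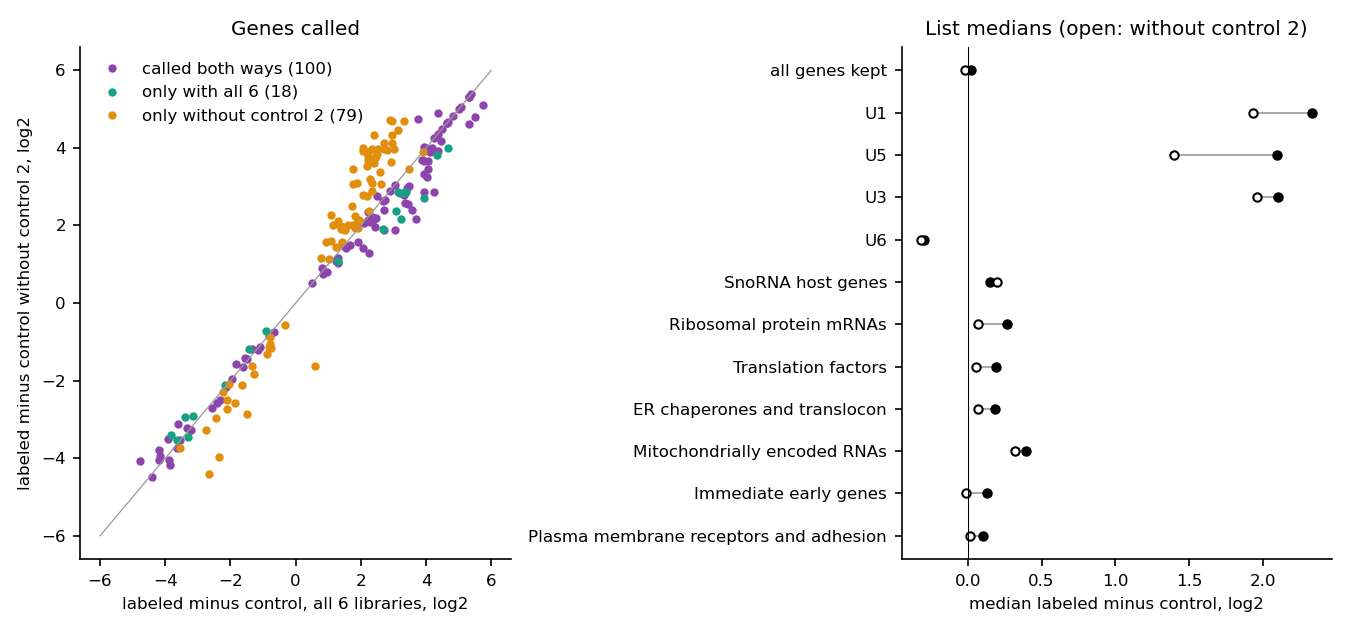
Left, labeled minus control differences of called genes with all 6 libraries (horizontal, log2) and without control 2 (vertical, log2), with 100 called both ways, 18 only with all 6 and 79 only without control 2. Right, medians of gene lists with all 6 libraries (filled) and without control 2 (open), where U1, U3 and U5 stay far from the median of all genes and ribosomal protein mRNAs go to 0.07.

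The PDGFR difference was compared with those of the other constructs, whose controls are separate libraries. Of the 83 genes that rose with PDGFR, 63 had the same sign with CD28, 73 with Lyn11 and 77 with Lck, and 57 had it in all 3. Those also called higher there numbered 7 with CD28, 33 with Lyn11 and 62 with Lck. Over the same 20215 genes, 9, 118 and 921 were called higher in these constructs, and 0.089%, 0.638% and 7.23% in either direction. Of the 35 that fell, 28 had the same sign with CD28 and 30 each with Lyn11 and Lck. Of these 35, 1 was also called lower with CD28, 4 with Lyn11 and 10 with Lck, where 9, 11 and 541 of all genes were called lower. The share of all 20215 genes with the same sign was not counted, so these sign counts have no background to be read against. Medians of the 35 were -3.16 with PDGFR, -0.65 with CD28, -0.64 with Lyn11 and -0.44 with Lck. RNVU1-15 differed by 2.75 with PDGFR, 2.49 with CD28, 2.80 with Lyn11 and 3.17 with Lck. ACP4 differed by 2.88 with PDGFR, 1.54 with CD28, 2.71 with Lyn11 and 3.10 with Lck, and IL12RB2 by 1.31, 0.69, 1.68 and 2.03 in the same order. EGR1 differed by 1.95 with PDGFR, 2.09 with CD28, 3.90 with Lyn11 and 4.41 with Lck.

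The median difference of the 83 genes was 3.37 with PDGFR, the contrast that chose them, 0.97 with CD28, 1.52 with Lyn11 and 1.96 with Lck. Few genes passed a test of the difference between constructs. PDGFR minus CD28 gave 3 calls of 20215 (0.0148%) and PDGFR minus the mean of the other 3 constructs gave 3 (0.0148%), and limma voom on recovered reads and a stricter filter gave 0 for both. No U1, U3 or U5 copy was among them, and a p above the threshold does not show that the constructs label alike. In RNVU1-29 the difference of differences was 1.77 ± 0.63 against CD28, and in ACP4 it was 1.34 ± 0.61, and neither was called.

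**Figure D5:**
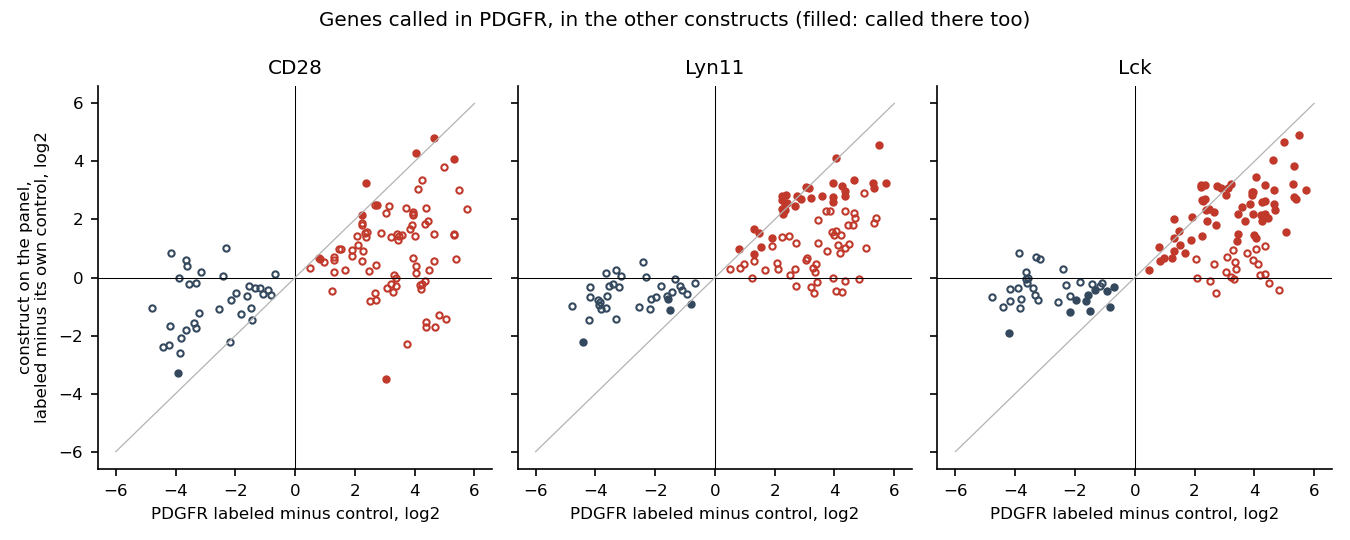
Labeled minus control differences of the 118 genes called with PDGFR (horizontal, log2) against the differences of CD28, Lyn11 and Lck from their own controls (vertical, log2), filled where the gene was called there too, red for higher and dark blue for lower. Most points lie in the areas where both signs are the same, at smaller sizes than in PDGFR, the contrast in which the genes were called.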

How the data were processed

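RNA captured after APEX2 labeling, and its unlabeled control, was sequenced from 26 libraries in 8 groups, and the labels call the replicates of a group biological. The deposited values are log2 FPKM, going by the name of the authors' table; reads had been aligned with HISAT2 2.1.0 to hg38 and handled with edgeR, per the submitters' processing notes, and strandedness and edgeR's version are not given in the sources used here. The values themselves show library-size scaling and a prior count of about 1 read. Whole reads were recovered for 25733 genes from the value steps, and 99.9% of values at the shared-floor genes were within 0.05 of a whole read. Gene names and positions came from GENCODE 29.

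Genes above 0 in at least 3 of the 6 PDGFR libraries were kept. limma 3.58.1 (R 4.3.3) with a mean-variance trend was fitted to the log2 values of all 26 libraries, with 1 mean per group and 1 weight per construct, and p-values were adjusted by Benjamini-Hochberg over 20215 genes with calls under 0.05. The script was tested on simulated data: where a gene's spread differed between constructs, this pooled fit made false calls at about the number called in the data, and the fit of the PDGFR libraries alone made far fewer. Summed reads were compared by exact permutation tests, two-sided. Counting intervals and the floor of 3 reads cover counting error only. Named genes were the 12 largest called differences with a mean log2 of at least 1 in each direction, up to 10 coding genes, and up to 5 for each test between constructs, beside members of the gene lists; others were chosen after their values were seen. The members and lists were chosen with earlier results of these data known. Replicate numbers did not pair the libraries. Alternatives were other weights, filters, scalings, voom and libraries left out.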

Additional observations from a re-analysis of the deposited data

Results flagged for a closer look

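A test of the difference between constructs set apart 4 genes, each larger in PDGFR, by limma with Benjamini-Hochberg adjustment over 20215 genes. RGS17P1 (ENSG00000229473.2), a pseudogene within ELF1, had 17, 21 and 40 reads in PDGFR labeled libraries and 0 in every control. Its PDGFR difference exceeded that of CD28 by 6.48 ± 0.75 (SE, adjusted p = 0.000472) and the mean of the other 3 constructs by 4.67 ± 0.58 (adjusted p = 0.00124). RN7SL306P (ENSG00000242241.3), a 7SL pseudogene opposite TNPO3, had 16, 22 and 24 reads against 0 in every control, and the same differences were 6.09 ± 0.89 (adjusted p = 0.00655) and 5.39 ± 0.69 (adjusted p = 0.00124). The Y_RNA copy ENSG00000207380.1, within MCM8, had 13, 1 and 9 reads against 0 in every control and exceeded CD28 by 6.54 ± 0.89 (adjusted p = 0.00314). ENSG00000265625, within SSH2, had 56, 39 and 56 reads in labeled libraries and 9, 11 and 6 in controls and exceeded the mean of the other 3 by 2.79 ± 0.45 (adjusted p = 0.0236). In the first 3 genes the fitted differences depend on the prior count, since their PDGFR controls are at 0 reads, and are no bounds. In these genes the gap to CD28 was larger than the PDGFR difference itself. Their CD28 differences were therefore negative, and part of each gap comes from CD28 rather than PDGFR. These 3 passed the filter on low values only through the labeled libraries, where they are high. With voom on the recovered reads, and with a stricter filter, 0 genes were called in either test (for PDGFR minus CD28, 1025 and 628 at an unadjusted p under 0.05, and for PDGFR minus the other 3, 870 and 495). Groups of 3 were not tested for single outlying libraries.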

How the results depend on the processing

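Calls between labeled and control PDGFR libraries numbered 118 as reported (1826 at an unadjusted p under 0.05), and changed with the setting: 364 unweighted (229 higher, 135 lower), 236 with a weight for each library (164 higher, 72 lower), 46 with a stricter filter, 27 with voom on recovered reads, 14 with the 6 PDGFR libraries alone, and 5 with those alone and without control 2. The last was chosen after seeing the data. With the replicate number as a block 45 were called, 37 of them among the 118; the numbers did not pair the libraries (deviation correlations 0.027, -0.007 and -0.007). Leaving out 1 PDGFR library gave 47 to 214 calls: 64, 47 and 51 without labeled replicates 1, 2 and 3, and 214 (179 higher, 35 lower), 179 and 127 (109 higher, 18 lower) without control replicates 1, 2 and 3. Median centring split 122 calls into 95 higher and 27 lower. Calls for PDGFR minus CD28 numbered 3 as reported, 8 unweighted, 10 with library weights, 2 with the block, 0 with voom or the stricter filter (1025 and 628 at an unadjusted p under 0.05), and 3 to 15 with 1 library left out (3 without CD28 labeled replicate 2). Those for PDGFR minus the other 3 constructs numbered 3 as reported, 16 unweighted, 20 with library weights, 2 with no filter, 0 with quantile normalization, the block, voom or the stricter filter (1003, 990, 870 and 495 at an unadjusted p under 0.05), and 4 to 47 with 1 library left out. For these tests, voom, the filters, median centring and leaving out CD28 labeled replicate 2 were chosen after seeing the data. Of 809 alternative values of 49 named called genes, 508 kept their side of the threshold, 301 lost the call and 0 changed sign. Of these 49 genes, 9 kept the call with the PDGFR libraries alone, and 4 with those alone and without control 2. The 126 alternative values of family sums stayed within the spread between replicates. Values with 1 library left out could not pass that limit, so this is no sign of stability. The cause of these changes was not tested. DESeq2 and edgeR were not run on the log2 values. Many called genes rest on few reads, 14 of the 83 higher ones on 0 in every control.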
